A study of Rattus norvegicus with 24 samples.

Results

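The 48 genes described here encode RNA polymerase I, its transcription factors, and the nucleolar proteins that modify, cleave and assemble ribosomal RNA. They were taken by gene symbol from a table of 15273 genes measured in rat tibialis anterior muscle. A row was found for 47 of the 48, and Heatr1 was not analysed here. Of the 47, 35 were represented by 1 transcript model and 12 by several, which were summed to 1 value per gene, and all 47 passed the filter on low values.

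RNA polymerase I transcribes the long precursor of ribosomal RNA in the nucleolus, where UBTF opens the repeated ribosomal DNA and RRN3 couples the polymerase to growth signals. The precursor is methylated by box C/D particles, pseudouridylated by box H/ACA particles, cut by the small-subunit processome and by large-subunit factors, and exported as the small and the large subunit. In skeletal muscle the amount of ribosomal RNA sets the capacity for protein synthesis, and it is known to rise early when a muscle is loaded. MYC is a known activator of many of these genes through the CACGTG motif, called the E-box.

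Male Wistar rats trained the left hind limb once a day for 2, 10, 20 or 30 days. In this SpillOver model an implanted pulse generator stimulated the nerves so that the tibialis anterior contracted against the plantarflexor muscles. RNA was measured 1 h after the last session in the trained left muscle and the unstimulated right (contralateral) muscle of 3 rats per time point, which gives 12 rats and 24 muscles. The contralateral muscles thus came from rats that carried the implant and trained the other leg, and sham-operated rats were not analysed here.

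Values are TPM-type values per transcript length, rescaled here so that the typical transcript is equal between libraries. Reads were recovered by searching, gene by gene, for a length that turned the deposited values into whole reads. The step in value that 1 read makes was estimated for each library. Such a length (whole reads within 0.05 of a read in all 24 libraries) was found for 29 of the 47 genes. These reads ran from 27 to 1091 per gene and library, with a median of 163. The shallowest library was contralateral 30 days replicate 2, where 1 read was worth 1.46 times the median step. Muscle fibre markers (7 of 8 in the table, Ckm and Acta1 among them) summed to between 82150 and 94210 in the contralateral muscles and to between 62440 and 102600 in the trained ones. All 3 trained muscles were below the contralateral range at 2 days (81300, 76700 and 78200) and at 30 days (76560, 81430 and 76030). The sums were 83290, 102600 and 80380 at 10 days and 96650, 90440 and 62440 at 20 days. Ankrd1, a stress-responsive gene of loaded muscle that served as a check of the labels, was between 2.45 and 30.4 in the contralateral muscles and between 40.02 and 2670 in the 12 trained ones, with no overlap. In a bulk sample, fewer cells of a type and less RNA per cell cannot be told apart.

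The question was how the difference between trained and contralateral muscle, 1 h after the last session, changes as training goes on. No trained muscle was taken before its last session, so the effect of that session and that of earlier sessions cannot be told apart. At 2 days 11 of the 47 genes (23.4%) rose and 0 fell, where 15.4% of the 11196 genes tested rose and 13.5% fell (limma, adjusted p under 0.05). An unadjusted p under 0.05 was reached by 14 genes that were higher and 2 that were lower at 2 days. At 10 days 1 gene rose (2.13%, all genes 15.6%) and 6 fell (12.8%, all genes 13.3%). At 20 days 1 rose (2.13%, all genes 11.7%) and 3 fell (6.38%, all genes 9.64%), and at 30 days 1 rose (2.13%, all genes 11.1%) and 4 fell (8.51%, all genes 9.46%). In this fit the share that fell was therefore near or below the background at every time point. In all, 20 of the 47 genes passed the test at 1 time point or more, 13 at 1 and 7 at 2, and 27 passed at none.

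Over the 47 genes the median log2 fold change at the successive time points was 0.16, -0.10, -0.04 and -0.08, where the median of all genes lay between -0.03 and -0.01. These 4 comparisons share the same 12 contralateral muscles, so they are not independent of each other. The count at 2 days depended on the fit and on single muscles. When each trained muscle was set against the contralateral muscle of its own rat, a fit with the animal as a block, 2 genes rose (Rrp12 and Ncl, 4.26% against 11.8% of all genes) and 0 fell (9.8% of all genes), and an unadjusted p under 0.05 was reached by 9 higher and 0 lower genes. Without trained 2 days replicate 2, the count was 1 (Rrp12). Without replicate 3 it was 5 genes and without replicate 1 it was 19.

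With the animal as a block the later counts were 0 higher and 3 lower at 10 days (Polr1b, Rrn3 and Wdr12; 12.1% and 8.0% of all genes), 0 and 0 at 20 days (9.94% and 7.42%), and 0 higher and 1 lower at 30 days (Bms1; 7.21% and 5.09%). An unadjusted p under 0.05 in that fit was reached by 1 higher and 8 lower genes at 10 days, by 1 and 3 at 20 days and by 1 and 5 at 30 days. The count at 10 days was 3 without trained 10 days replicate 2, that at 20 days 1 without trained 20 days replicate 2 and 2 without replicate 1, and that at 30 days 2 without trained 30 days replicate 1 and 3 without replicate 3.

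Scaling mattered most at 30 days. Without rescaling, on the values as deposited, 12 genes rose at 2 days (25.5%, all genes 18.9%) and 0 fell (all genes 6.49%). On that scale 1 rose (2.13%, all genes 18.6%) and 2 fell (4.26%, all genes 6.06%) at 10 days. After 20 days 0 rose (all genes 10.3%) and 1 fell (2.13%, all genes 6.62%). After 30 days 0 rose (all genes 5.74%) and 16 fell (34.0%, above the 23% of all genes). An unadjusted p under 0.05 on that scale was reached by 21 higher and 0 lower genes at 2 days, by 1 and 5 at 20 days and by 0 and 26 at 30 days. The median of all genes stood at -0.18 there at 30 days, and that of the 47 genes at -0.28. The median of the 47 genes at 10 days was 0.01 without rescaling, on the other side of 0.

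**Figure D1:**
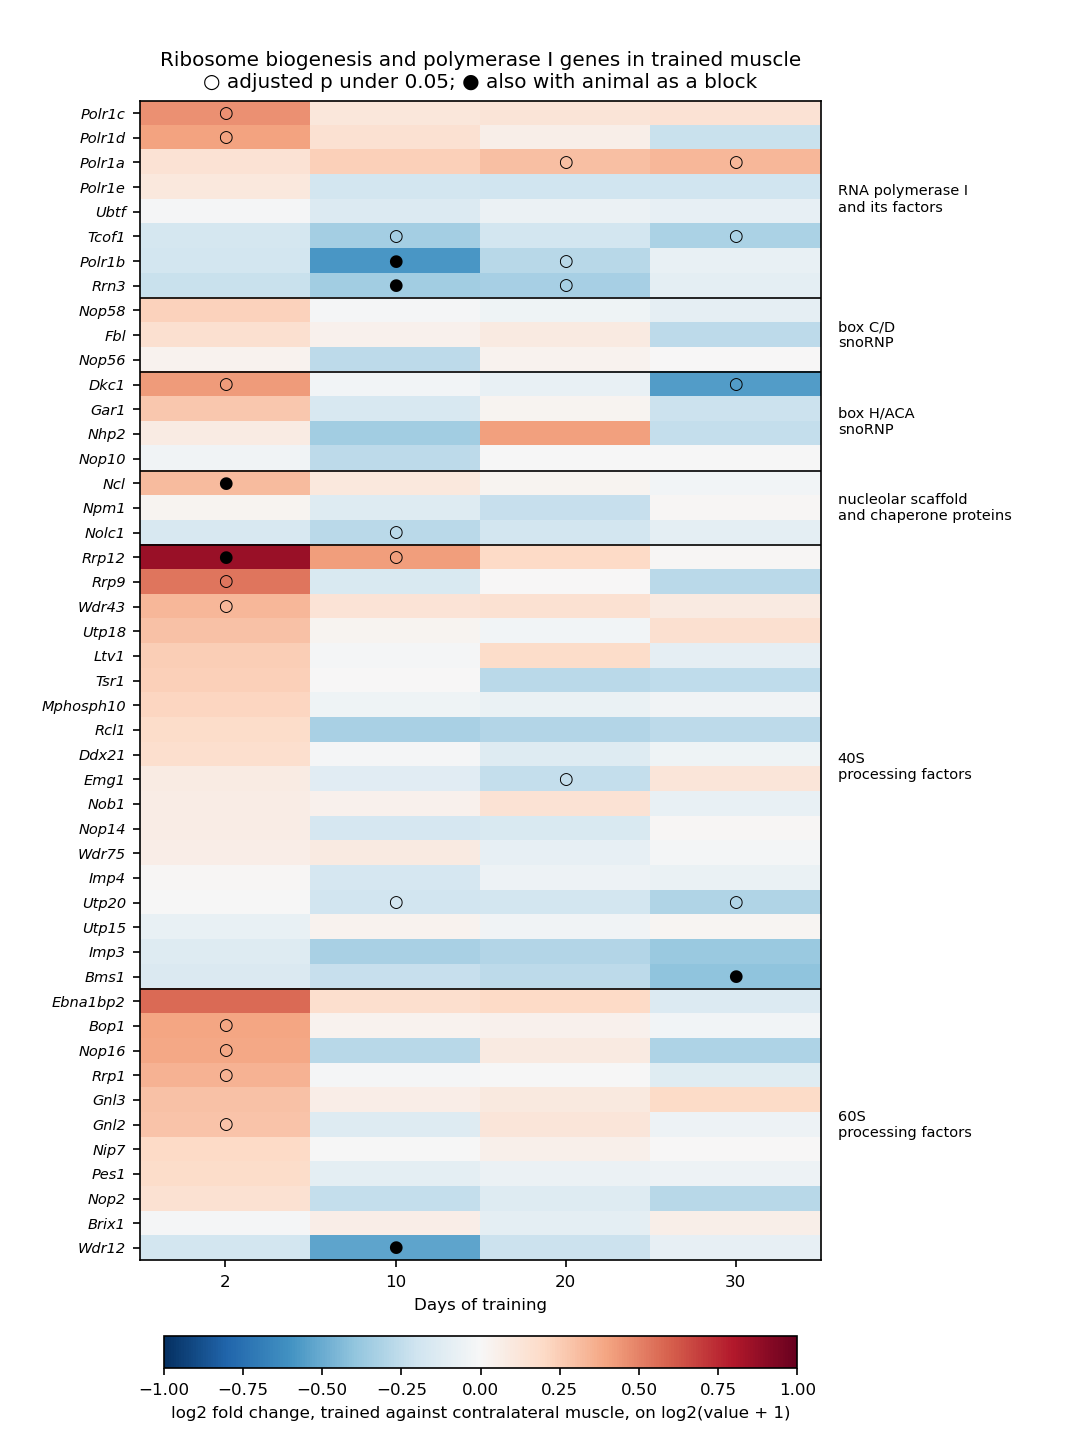
Fitted log2 fold change of the 47 genes (rows, grouped by role) in trained against contralateral muscle at 2, 10, 20 and 30 days (columns), on the log2(value + 1) scale, red for higher and blue for lower. Open circles mark adjusted p under 0.05 and filled circles those that also passed with the animal as a block: 11 circles at 2 days, all on red cells, and 7, 4 and 5 at the later times, mostly on blue ones.

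The promoter windows of 5 genes are given first, because these are the genes that carry both an E-box in the promoter and a change in the test. RefSeq promoters on the GRCr8 build (250 bases before to 50 after the annotated start) were found for 45 of the 48 genes. Each window has the CACGTG motif in capitals with 12 bases on each side, read 5′ to 3′ on the strand of the gene.
Rrp12 (chr1:250655298-250655327, minus strand, motif starting 3 bases after the start): gctgagaatacaCACGTGggttctgctgtg
Dkc1 (chrX:157751455-157751484, plus strand, 184 bases before): agcgtcccggcgCACGTGcgggccccaccc
Rrp1 (chr20:10260552-10260581, plus strand, 16 bases before): tggcgtgacgcaCACGTGtcgtcactcgag
Tsr1 (chr10:60258798-60258827, plus strand, 20 bases after): gtttactcggtgCACGTGggcagttagaat
Utp20 (chr7:25102959-25102988, minus strand, 127 bases before): cagcactagctaCACGTGagaaaaagcaga

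The calls among the genes of RNA polymerase I and its factors went in both directions, and most were lost with the animal as a block. Of the 8, the shared subunits Polr1c and Polr1d, which polymerases I and III have in common, rose at 2 days, the second-largest subunit Polr1b and the initiation factor Rrn3 fell at 10 and 20 days, and the largest subunit Polr1a rose at 20 and 30 days. The factor Tcof1, which links UBTF and the polymerase in the nucleolus, fell at 10 and 30 days. Polr1e and Ubtf passed at no time point.

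Polr1c lay between 5.64 and 8.90 in the 12 contralateral muscles, with a median of 7.65, and was 8.81, 12.07 and 10.01 in the 3 trained muscles at 2 days. Of the trained muscles 1 fell inside the contralateral range and the other two lay above it. The log2 fold change was 0.46 (SE 0.119, adjusted p = 0.00539), but 0.43 with adjusted p = 0.0593 with the animal as a block, and the adjusted p was 0.101 without trained 2 days replicate 2. Polr1d was 12.96, 17.5 and 17.7 at 2 days against 9.995 to 16.4 (median 10.97), and its log2 fold change of 0.40 (adjusted p = 0.0357) had an adjusted p of 0.332 with the animal as a block, 0.212 without trained 2 days replicate 2 and 0.18 without replicate 3.

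Polr1b moved the other way. It lay between 5.34 and 6.77 (median 5.79) in the contralateral muscles and was 3.24, 3.53 and 4.15 at 10 days, where all 3 trained muscles were below the contralateral range. That was the case for 5 of the 47 genes (Polr1b, Rrn3, Tcof1, Nolc1 and Wdr12) and for 8.15% of all genes. The difference of -0.58 (SE 0.085, adjusted p = 1.34e-05), a fold of 0.669, was -0.51 with the animal as a block (adjusted p = 0.0046) and passed whichever library was left out. In reads, the contralateral libraries held 122 to 217 of Polr1b and the 10 day trained ones 110, 113 and 144.

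At 2 days Polr1b was 5.18, 4.76 and 5.34 (5.335, against a lowest contralateral value of 5.342), again below every contralateral muscle as were 6.18% of all genes, with a difference of -0.18 that did not pass (adjusted p = 0.111). At 20 days it was 5.11, 4.44 and 4.55, also below the range, the 1 member of which this was true (4.81% of all genes; -0.28, adjusted p = 0.0204). That call was lost with the animal as a block (adjusted p = 0.0578), without trained 20 days replicate 2 (adjusted p = 0.106) and without replicate 3 (adjusted p = 0.0782). By 30 days the values were 6.23, 4.71 and 5.83, and 2 of the 3 lay inside the contralateral range.

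Rrn3, the factor that recruits RNA polymerase I to its promoter, lay between 16.1 and 21.6 (median 18.2) in contralateral muscle and was 14.8, 12.8 and 15.3 at 10 days, below every contralateral muscle. The difference of -0.35 (SE 0.087, adjusted p = 0.00348) kept its call with the animal as a block (adjusted p = 0.0446) and had an adjusted p of 0.0506 without trained 10 days replicate 2. At 20 days it was 17.01, 12.97 and 13.7 (-0.33, adjusted p = 0.0074), with 1 muscle inside the contralateral range. This later call was lost with the animal as a block (adjusted p = 0.0725) and without trained 20 days replicate 2 (adjusted p = 0.0857). The models Rrn3-201 and Rrn3-202 list the same value in all 24 libraries, so the sum counts that value 2 times. With only the highest model of each gene, which is Rrn3-204, the differences were -0.09 at 10 days (adjusted p = 0.804) and -0.33 at 20 days (adjusted p = 0.344). The models with the shared value were at 5.80 ± 1.05 (SD, n = 12) in contralateral muscle and 3.97 ± 1.28 (SD, n = 3) at 10 days, and Rrn3-204 was at 6.90 ± 1.88 and 6.36 ± 1.76.

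Tcof1 was 4.07, 3.92 and 4.63 at 10 days against 4.80 to 6.52 (median 5.67), below every contralateral muscle, and 5.33, 4.29 and 3.44 at 30 days, where 1 muscle lay inside the range. The differences were -0.34 (adjusted p = 0.0122) and -0.32 (adjusted p = 0.0274), and with the animal as a block the adjusted p was 0.14 and 0.0877. Neither passed without 2 of its own libraries: the adjusted p was 0.0652 and 0.0765 without trained 10 days replicates 1 and 2, and 0.0919 and 0.289 without trained 30 days replicates 2 and 3.

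Polr1a, the catalytic subunit, was the 1 gene of the 47 that rose at 20 and at 30 days. It lay between 3.09 and 4.80 (median 3.99) in contralateral muscle and was 5.62, 4.78 and 4.63 at 20 days and 5.72, 4.95 and 4.79 at 30 days. Each of these groups had muscles inside the contralateral range, and 0 of the 47 genes had all 3 trained muscles above it at 20 or 30 days (8.23% and 7.48% of all genes). The differences were 0.30 (adjusted p = 0.0354) and 0.33 (adjusted p = 0.0202), and both calls were lost with the animal as a block (adjusted p = 0.189 and 0.0834). Both were also lost without replicate 1 of the time point (adjusted p = 0.211 at 20 days and 0.133 at 30 days) and without replicate 2 (adjusted p = 0.0702 and 0.0557).

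Among the small nucleolar particles, the methylating box C/D proteins Nop56, Nop58 and Fbl passed at no time point. Their log2 fold changes at 2 days were 0.04, 0.23 and 0.16, and in limma 0 of the 3 reached an unadjusted p under 0.05 at 2, 20 or 30 days and 1 did at 10 days. Fbl overlaps Dyrk1b on the same strand, so its reads are uncertain. Of the 4 box H/ACA proteins, which guide pseudouridylation, only the pseudouridine synthase Dkc1 passed, and Gar1, Nhp2 and Nop10 did not.

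Dkc1 lay between 12.7 and 22.2 (median 16.1) in contralateral muscle, was 17.8, 25.2 and 23.3 at 2 days, and fell to 11.4, 11.4 and 9.03 at 30 days. At 30 days every trained muscle was below the contralateral range, while at 2 days 1 of the 3 was inside it. The differences were 0.43 at 2 days (SE 0.161, adjusted p = 0.0474) and -0.56 at 30 days (adjusted p = 0.015), and both lost their call with the animal as a block (adjusted p = 0.436 and 0.123). The 2 day call was at the threshold and was lost for 15 of the 24 libraries left out in turn, controls included, with adjusted p between 0.0505 and 0.287, and the 30 day call was lost without trained 30 days replicate 3 (adjusted p = 0.118). Most of the value came from the model Dkc1-201, annotated as a processed transcript without a protein, at 13.5 ± 3.32 (SD, n = 12) in contralateral muscle against 2.63 ± 2.03 for the coding model Dkc1-202. At 30 days Dkc1-201 was 9.07 ± 0.0614 and Dkc1-202 was 1.52 ± 1.30 (SD, n = 3).

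Of the 3 nucleolar scaffold and chaperone proteins, nucleolin (Ncl), which binds ribosomal DNA and precursor RNA, was between 37.0 and 50.4 (median 42.1) in contralateral muscle and 52.8, 57.7 and 50.4 at 2 days. It was chosen after its values were seen, because it is 1 of the 2 risers at 2 days that also passed with the animal as a block. Of the trained muscles 2 were above the range and the third was at its upper end. The log2 fold change was 0.32 (SE 0.093, adjusted p = 0.0117), 0.46 with the animal as a block (adjusted p = 0.0136), and the adjusted p was 0.117 without trained 2 days replicate 2. Nolc1, a scaffold of the small nucleolar particles, fell at 10 days (-0.27, adjusted p = 0.0152), with an adjusted p of 0.103 with the animal as a block and 0.0946 without trained 10 days replicate 2. Nucleophosmin (Npm1), the most abundant of the 47 at 51.6 ± 7.34 (SD, n = 12), passed at no time point, and its known processed pseudogenes make its reads uncertain.

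**Figure D2:**
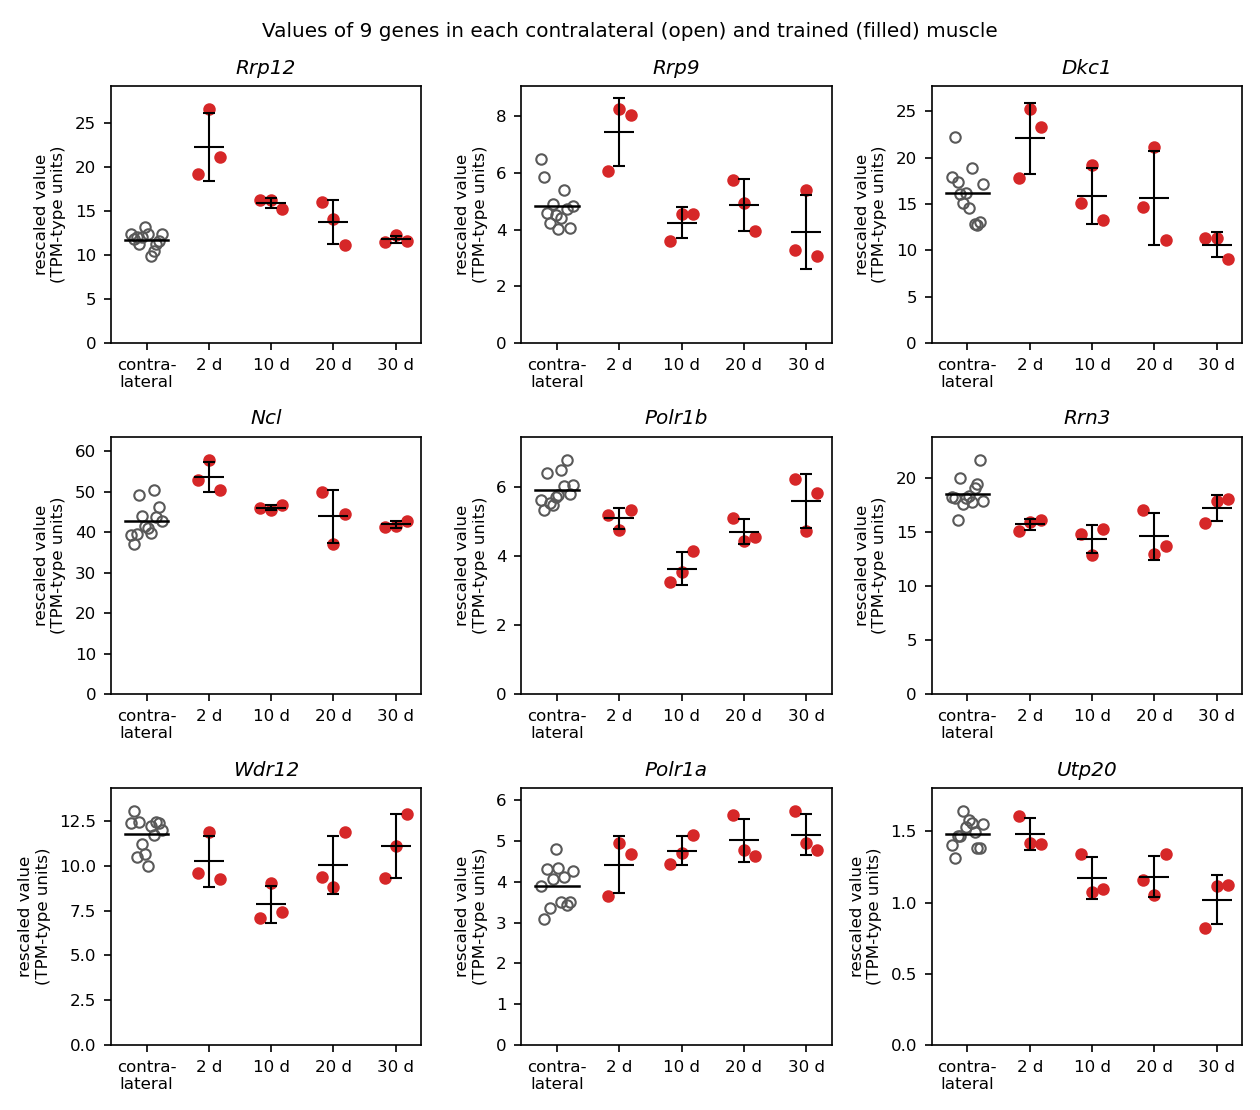
Rescaled values (TPM-type units, linear axes from 0) of 9 genes in each of the 12 contralateral muscles (open circles, bar at the mean) and the 3 trained muscles of each time point (filled circles, bar at the mean, whiskers 1 SD). Rrp12 is above every contralateral muscle at 2 and 10 days, Polr1b is below every one at 2, 10 and 20 days, and Polr1a at 20 and 30 days has muscles above and inside the contralateral range.

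The small-subunit factors held the largest change. Rrp12, which escorts the precursor of the small subunit during maturation and export, was 9.84 to 13.2 (median 11.9) in contralateral muscle and 19.2, 26.5 and 21.1 at 2 days. In reads these were 281 to 504 against 793, 1091 and 848. All 3 trained muscles were above the contralateral range, as was true of 8.57% of all genes, and the log2 fold change was 0.86 (SE 0.0988, adjusted p = 5.16e-07), a fold of 1.82.

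Rrp12 was the 1 member whose rise at 2 days held whichever library was left out, and with the animal as a block it was 0.82 (adjusted p = 0.000471). At 10 days it was 16.2, 16.2 and 15.2, again above every contralateral muscle, as were 10.0% of all genes (0.41, adjusted p = 0.00254), but with the animal as a block the adjusted p was 0.0561. At 20 days the values were 16.03, 14.04 and 11.1, and at 30 days 11.5, 12.3 and 11.6, all of the latter inside the contralateral range.

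Rrp9, a component of the particle formed around the U3 RNA, lay between 4.02 and 6.51 (median 4.66) and was 6.08, 8.24 and 8.03 at 2 days, with 1 trained muscle inside the range. The log2 fold change of 0.53 (SE 0.134, adjusted p = 0.00413) became 0.34 with the animal as a block (adjusted p = 0.221), and the adjusted p was 0.0569 without trained 2 days replicate 2. Wdr43, a processome protein, also rose at 2 days (0.33, adjusted p = 0.0157), and its adjusted p was 0.0527 with the animal as a block, 0.224 without trained 2 days replicate 2 and 0.0541 without replicate 3.

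Among the small-subunit factors, Bms1, Emg1 and Utp20 fell later. Bms1, a GTPase of the processome, lay between 12.3 and 18.1 (median 14.9) and was 9.35, 12.1 and 11.3 at 30 days, below every contralateral muscle, as were 6.08% of all genes. Its difference was -0.40 (SE 0.098, adjusted p = 0.00485), -0.37 with the animal as a block (adjusted p = 0.0419), and its adjusted p was 0.0684 without trained 30 days replicate 1 and 0.0635 with only its highest model. That model, Bms1-203, gave most of the value from 27 to 73 reads per library and lies outside the span of the other models. It was 8.80 ± 1.84 (SD, n = 12) in contralateral muscle and 6.49 ± 1.195 (SD, n = 3) at 30 days. In the same groups Bms1-202 was 4.67 ± 0.83 and 3.63 ± 0.24. Emg1, a methyltransferase of the small-subunit RNA, was 7.15, 8.44 and 6.84 at 20 days against 8.10 to 10.1 (median 8.89), with 1 muscle inside the range (-0.24, adjusted p = 0.035). That call was lost with the animal as a block (adjusted p = 0.367), without trained 20 days replicates 1 and 3 (adjusted p = 0.144 and 0.179) and without contralateral 10 days replicate 2 (adjusted p = 0.0508).

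Utp20, a scaffold of the processome, was low in every library, at 1.31 to 1.64 (median 1.48) in contralateral muscle from 68 to 126 reads. It was 1.61, 1.42 and 1.41 at 2 days, where its adjusted p of 0.998 was the furthest of all members from the threshold, followed by Brix1 of the large subunit (adjusted p = 0.952). At 10 days it was 1.34, 1.08 and 1.09 (-0.19, adjusted p = 0.0478) and at 30 days 0.82, 1.119 and 1.122 (-0.30, adjusted p = 0.00472). All 3 muscles were below the contralateral range at 30 days, as were 6.08% of all genes, and 2 of 3 at 10 days.

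With the animal as a block Utp20 had an adjusted p of 0.148 at 10 days and 0.114 at 30 days. The 10 day call was lost for 15 of 24 libraries left out in turn, with adjusted p between 0.0509 and 0.197, and the 30 day call without trained 30 days replicate 1 (adjusted p = 0.0681). Of the 18 small-subunit factors, 3 rose at 2 days (16.7%, near the 15.4% of all genes). At 10 days 1 rose and 1 fell (5.56% each, all genes 15.6% and 13.3%), at 20 days 1 fell (5.56%, all genes 9.64%) and at 30 days 2 fell (11.1%, all genes 9.46%). Emg1 and Tsr1 each overlap a gene on the opposite strand (Lpcat3 and Srr), and whether the counting used strand is not given in the sources used here.

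Of the 11 large-subunit factors 4 rose at 2 days (36.4%, all genes 15.4%), namely Bop1, Nop16, Rrp1 and Gnl2, with log2 fold changes between 0.29 and 0.40 and adjusted p between 0.0104 and 0.0316. With the animal as a block 0 of the 11 passed in limma (all genes 11.8%), and an unadjusted p under 0.05 was reached by 4 higher and 0 lower genes. The median log2 fold change of the 11 at 2 days was 0.29, and 0.26 with the animal as a block. Bop1 belongs to the complex with Pes1 and Wdr12 that processes the large-subunit RNA, and it overlaps Mroh1 and Scx on the opposite strand. Pes1 passed at no time point, and Wdr12 went the other way.

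Wdr12 lay between 10 and 13.03 (median 12.1) in contralateral muscle and was 7.11, 9.02 and 7.42 at 10 days, below every contralateral muscle. The difference was -0.53 (SE 0.104, adjusted p = 0.000408), -0.49 with the animal as a block (adjusted p = 0.0181), and it passed whichever library was left out. At 30 days it was 9.33, 11.1 and 12.9, with 2 muscles back inside the range.

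Gnl2, a nucleolar GTPase of large-subunit export, was named after its values were seen, as the other gene with Rrp12 whose 3 trained muscles at 2 days (6.50, 8.62 and 6.68) were all above the contralateral range of 5.26 to 6.40. Its log2 fold change was 0.29 (adjusted p = 0.0104). With the animal as a block the adjusted p was 0.38 for Bop1, 0.122 for Nop16, 0.0749 for Rrp1 and 0.136 for Gnl2. Without trained 2 days replicate 2 the adjusted p was 0.312 for Bop1, 0.145 for Nop16, 0.19 for Rrp1 and 0.216 for Gnl2. Without replicate 3 it was 0.063 for Bop1, 0.0608 for Nop16 and 0.056 for Rrp1. Ebna1bp2, which also acts in large-subunit assembly, had a larger estimate at 2 days (0.57, SE 0.251) that did not pass (adjusted p = 0.0928), since its contralateral muscles ran from 4.67 to 17.3.

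Trained muscles at 30 days were then compared with trained muscles at 2 days, with no control muscle in the contrast. At 30 days 10 of the 47 genes were lower (21.3%, all genes 7.91%) and 0 were higher (all genes 7.07%), and an unadjusted p under 0.05 was reached by 19 lower and 0 higher genes. The median log2 difference of the 47 was -0.25 against -0.01 for all genes. For 19 of the 47 the 3 muscles at 30 days were all below the 3 at 2 days, as was true of 16.1% of all genes, and for 0 they were all above (against 15% of all genes). Markers of other cells differed in the same contrast. Of the dividing cell markers 5 of 6 tested were lower at 30 days (median -0.67; 2 with the animal as a block), and their sum was 16.2, 18.3 and 21.2 against 19.8, 35.02 and 25.3 at 2 days. Of the satellite cell and myoblast markers 2 of 5 were lower (median -0.42, with 1 lower with the animal as a block). Their sums were 94.1, 117.1 and 90.9 against 154.1, 298.0 and 217.7. Myf6 made up most of these sums, at 70.1, 91.45 and 63.1 against 122.5, 230.3 and 168.6. Of the macrophage and monocyte markers 0 of 8 passed in limma (median -0.05), where 2 higher and 1 lower had an unadjusted p under 0.05, and 1 was lower with the animal as a block. Their part in the difference of the 47 genes was not tested.

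Among the 10 genes that passed, the 4 largest falls were those of Dkc1 (-0.99, adjusted p = 0.00191), Rrp12 (-0.85, adjusted p = 9.24e-05), Rrp9 (-0.80, adjusted p = 0.0024) and Nop16 (-0.70, adjusted p = 0.00172), and these passed whichever library was left out. Ebna1bp2 had a difference of -0.70 that did not pass (adjusted p = 0.139). Nop16, a large-subunit factor known as a MYC target, was 19.6, 26.5 and 24 at 2 days and 13.2, 15.8 and 12.96 at 30 days, against 14.2 to 21.8 (median 17.1) in contralateral muscle. Rrp9 was 3.29, 5.40 and 3.07 at 30 days, with 2 muscles below the contralateral range. The other 6 were Polr1d, Tsr1, Rrp1, Ncl, Gnl2 and Utp20, between -0.62 and -0.30.

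With the animal as a block, which tests whether the difference between the 2 legs changed between 2 and 30 days, 1 gene passed, Rrp12 (-0.81, adjusted p = 0.0294), where 1.46% of all genes were lower and 1.35% higher. An unadjusted p under 0.05 in that fit was reached by 8 lower and 0 higher genes. On the values as deposited 29 were lower (61.7%, all genes 27.0%) and 0 higher (all genes 2.22%), with the median of all genes at -0.27. There 39 lower and 0 higher genes had an unadjusted p under 0.05. The count was 4 without trained 2 days replicate 2, 5 without replicate 3 and 15 without replicate 1, and it was 6, 7 and 5 without trained 30 days replicates 1, 2 and 3.

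Between 10 and 2 days of training 3 of the 47 were lower, Rrp9 (-0.68, adjusted p = 0.0348), Nop16 (-0.67, adjusted p = 0.0162) and Gnl2 (-0.41, adjusted p = 0.0348). This was 6.38% of the members against 0.849% of all genes, and 0 were higher (1.08% of all genes), where an unadjusted p under 0.05 was reached by 14 lower and 0 higher genes. On the values as deposited 2 were lower (0.577% of all genes) and 0 higher (0.719%), with an unadjusted p under 0.05 for 11 lower and 0 higher genes. In limma with the animal as a block 0 of the 47 passed (0.0179% of all genes lower, 0.0447% higher), with an unadjusted p under 0.05 for 8 lower and 0 higher genes. The count was 0 without trained 2 days replicate 2, trained 2 days replicate 3 or trained 10 days replicate 1, 1 without trained 10 days replicate 2 or 3, and 6 without trained 2 days replicate 1.

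The 3 rats at 2 days differed from each other. Taken against the contralateral muscle of the same rat, the median log2 ratio of the 47 genes was -0.08 in rat 1, 0.31 in rat 2 and 0.18 in rat 3, with 14, 38 and 32 of the 47 above 0, while the median over all genes was between -0.02 and -0.01 in the 3 rats. At 10 days the medians were -0.19, -0.05 and -0.12, at 20 days 0.09, 0.00 and -0.11, and at 30 days -0.11, -0.12 and -0.05. At 2 days 13 of the 47 genes were higher in all 3 rats (27.7%, all genes 26.5%) and 6 were lower in all 3 (12.8%, all genes 29.1%). At 10 days 3 were higher (6.38%, all genes 25.1%) and 17 lower (36.2%, all genes 27.1%). The counts were 8 and 6 at 20 days (17% and 12.8%, all genes 24.8% and 25.8%) and 4 and 12 at 30 days (8.51% and 25.5%, all genes 22.4% and 23.3%).

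**Figure D3:**
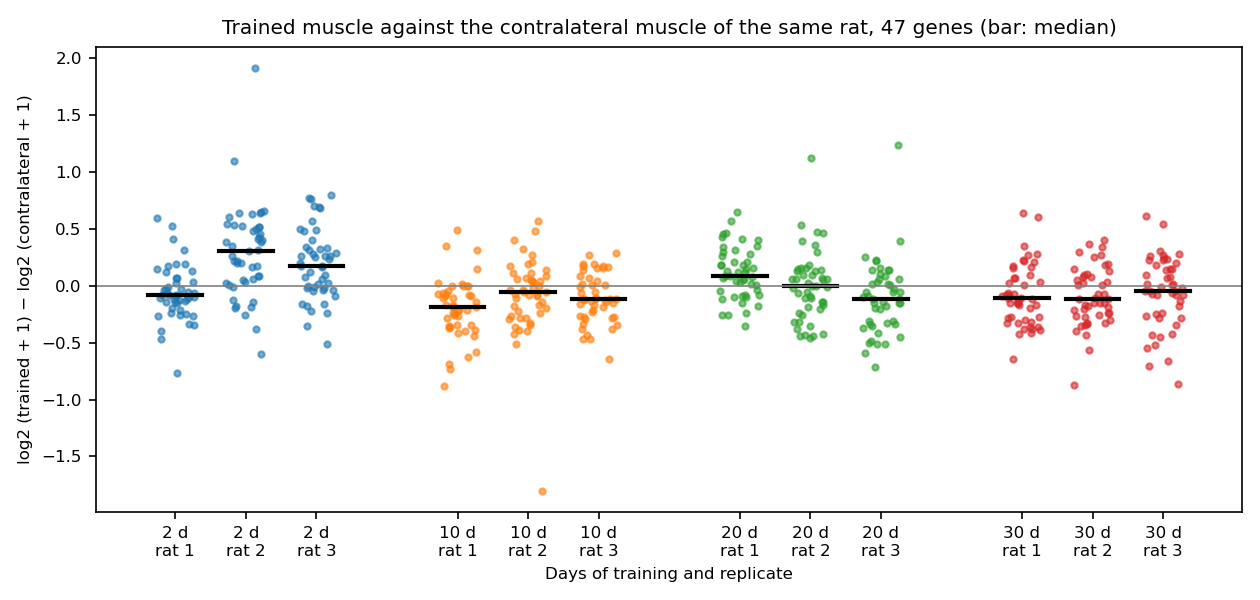
Log2 ratio of trained to contralateral muscle of the same rat for each of the 47 genes (points, spread sideways at random), with the median as a black bar, for the 3 rats of each time point. At 2 days the medians lie at -0.08, 0.31 and 0.18, and at 10 and 30 days all 6 medians are below 0.

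Markers of other cells moved with the same muscles. The macrophage and monocyte markers (10 in the table, 0 at zero in every library) summed to 16.02 to 35.3 in contralateral muscle and to 60.8, 154.1 and 108.3 in the 2 day trained muscles, and 6 of the 8 that could be tested rose. The markers of dividing cells (8 in the table) summed to 10.5 to 17.6 and to 19.8, 35.02 and 25.3, and 6 of 6 tested rose. The satellite cell and myoblast markers (6 in the table) summed to 79.9 to 157.3 and to 154.1, 298.0 and 217.7, and 3 of 5 tested rose. Most of that sum was Myf6, at 122.5, 230.3 and 168.6 in the 2 day trained muscles. Of the same list, Pax7, Myod1 and Cdh15 had every 2 day trained muscle inside their contralateral range. Myf6, Myog and Myf5 had muscles above theirs.

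Trained 2 days replicate 2, with the highest median of the 47 genes, thus also had the highest sum of each of these 3 lists, and replicate 1 the lowest of the 2 day trained muscles. At 10 days the macrophage markers still summed to 102.8, 90.5 and 47.9 those of dividing cells to 29.9, 20.1 and 26.6 and those of satellite cells to 171.8, 177.7 and 105.6, the last inside the contralateral range, beside medians of the 47 genes between -0.08 and -0.07 relative to the contralateral mean. Fibroblast markers (5 of 6 in the table) summed to between 74.7 and 253.1 in contralateral muscle, to 300.9, 495.3 and 410.3 at 2 days and to 981.8, 593.7 and 517.8 at 10 days. Endothelial markers (5 of 6) summed to 33.8, 31.7 and 33.5 at 2 days against 33.1 to 44.1, and erythroid markers (2 of 3) to 203.2, 141.9 and 211.7 against 129.3 to 373.8. The part of these cells in the changes of the 47 genes was not tested.

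**Figure D4:**
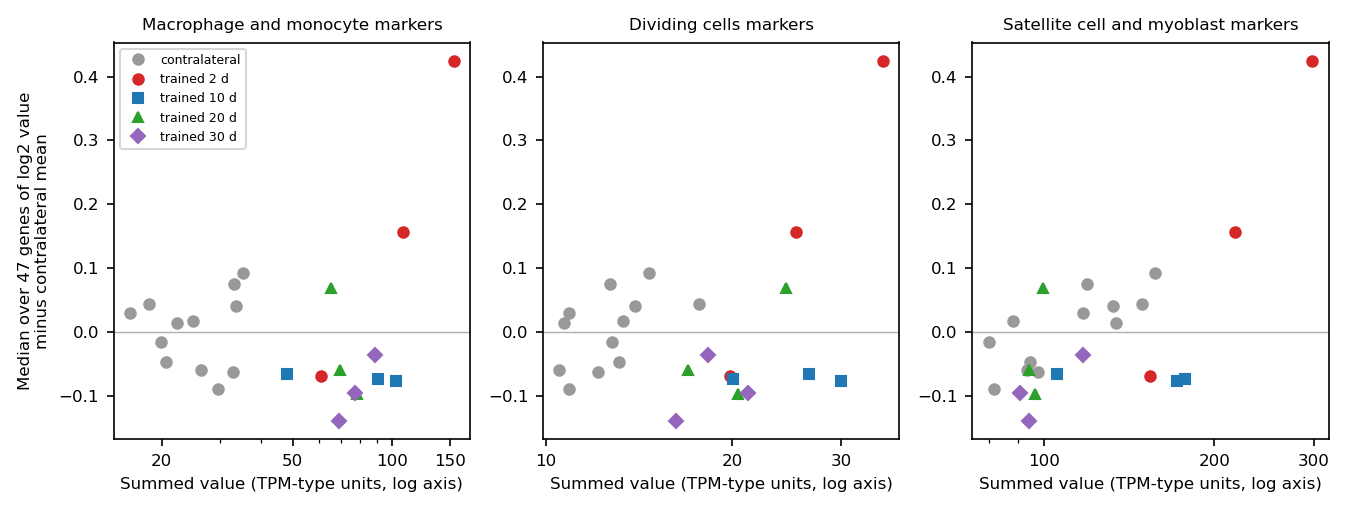
Median over the 47 genes of the log2 value minus its contralateral mean (vertical axis) against the summed value of 3 marker lists (horizontal, log axis), 1 point per muscle. The satellite cell sum is mostly Myf6. The trained 2 day muscles (red circles) stand at -0.07, 0.43 and 0.16, and the highest of them is also the highest in each marker sum, while the 10 day muscles (blue squares), with medians just below 0, lie above the contralateral range of the macrophage and dividing cell sums, and 2 of the 3 above that of the satellite cell sum.

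Of the other genes of the pathway, 91 of 93 listed were tested. At 2 days 15 rose (16.5%, near the 15.4% of all genes) and 3 fell (3.3%, all genes 13.5%), with a median log2 fold change of 0.10, and with the animal as a block 4 rose and 2 fell. The largest rises were those of Zfp622 (0.99, adjusted p = 4.1e-06), a factor of late large-subunit maturation, Tex10 (0.74, adjusted p = 0.000235) and Pak1ip1 (0.54, adjusted p = 0.00337). The 3 that fell were Dhx37, Twistnb and Senp3, at -0.47, -0.30 and -0.26. After 10 days of training 2 rose (2.2%, all genes 15.6%) and 13 fell (14.3%, all genes 13.3%). After 20 and after 30 days 2 rose (2.2%) and 7 fell (7.69%, all genes 9.64% and 9.46%), but on the values as deposited 29 fell at 30 days (31.9%, all genes 23%), and with the animal as a block 8, 5 and 1 fell at the 3 later times. Between 30 and 2 days 13 were lower (14.3%, all genes 7.91%), 46 on the values as deposited (50.5%, all genes 27.0%) and 0 in limma with the animal as a block (all genes 1.46%), where 9 lower and 0 higher genes had an unadjusted p under 0.05. The largest of the 13 differences were those of Ppan (-0.96), Rrs1 (-0.89) and Cd3eap (-0.82), the last a subunit of RNA polymerase I.

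Myc, whose product binds the E-box, was between 0.39 and 3.01 (median 1.33) in contralateral muscle and 11.6, 20.7 and 18.9 at 2 days. It was 16.4, 11.1 and 13.8 at 10 days, 12.03, 11.5 and 6.16 at 20 days and 4.42, 6.82 and 4.88 at 30 days, so that every trained muscle was above every contralateral one. Its log2 fold changes were 2.93, 2.66, 2.19 and 1.45, with adjusted p of 2.94e-09, 1.26e-08, 4.34e-07 and 0.000133.

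The E-box letters were present in 14 of the 45 promoters (31.1%), against 6.65% of the 27457 rat promoters in the table. The motif reads the same on both strands. The 14 were Dkc1, Ebna1bp2, Fbl, Gnl3, Ltv1, Nop2, Pes1, Rcl1, Rrp1, Rrp12, Tsr1, Utp18, Utp20 and Wdr75. The cAMP response element TGACGTCA was found in 0 (1.91% of all promoters), the AP-1 site TGACTCA in 0 (4.53%) and a palindrome of many housekeeping promoters in 1, that of Npm1 (0.433%).

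Of the 11 genes that rose at 2 days, 8 had a promoter in the table, and 3 of those 8 (Dkc1, Rrp1 and Rrp12) held the E-box, while 11 of the 36 tested genes that did not pass held it. The median log2 fold change at 2 days was 0.24 over the 14 genes with the motif and 0.08 over the 30 tested genes without it. At 10 days the medians were -0.01 and -0.16, at 20 days -0.04 and -0.05, and at 30 days -0.13 and -0.07. Between 30 and 2 days they were -0.42 and -0.15, and 5 of the 9 genes with a promoter that fell (the 5 whose windows are given) held the motif. Of the 35 that did not pass in that contrast 9 held it. Of the 2 genes with a promoter that were lower at 10 than at 2 days, 0 held it. These medians are a description of genes that share libraries, without a test.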

How the data were processed

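RNA of 24 tibialis anterior muscles was sequenced by the authors (poly-A enriched, directional libraries, paired reads). Per the labels and the study's methods, reads were aligned with STAR in Partek Flow to Rnor_6.0 (rn6) and assigned to Ensembl transcript models. The TPM-type values deposited by the authors are scaled for transcript length and to 1 total per library and cover 20027 transcripts. The study's methods name a median-of-ratios normalization, but every library of this table has the same total and values fall with transcript length, so they were treated as TPM-type. Read counts were not used here. A gene-level table that lacks some of the genes, and a table of the authors' own p-values and ratios, were not used. Columns of no listed sample numbered 0.

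Library scaling used median-of-ratios factors (0.778 to 1.14) computed over the 16230 transcripts above 0 throughout, after which transcripts were summed per gene. The filter kept the 11196 genes that reached 1 in 3 libraries or more. The linear model of limma 3.58.1 (R 4.3.3) on log2(value + 1) had 5 groups (12 contralateral muscles pooled, 3 trained muscles per time point), two-sided, with Benjamini-Hochberg adjustment over all genes of a comparison and a threshold of 0.05. Fold changes are on the log2(value + 1) scale, which understates the change of low genes. The fitting procedure was run on simulated data with changes of known size added at 2 days. The simulated muscles were independent, without an effect of the rat, so that run cannot show which fit suits paired muscles. Members named with full values had passed the threshold and were ranked by size of change: up to 4 per direction for every time point and for 30 against 2 days, any that passed in 1 direction at 3 or more time points, and in addition the 2 with the highest adjusted p at 2 days, with Myc and Ankrd1. Other members are given with fewer values, or marked as picked with their values in view. The members and the lists were chosen with earlier results of these data known.

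Each trained muscle has a contralateral muscle of the same rat, as the sample descriptions show, so the numbers pair the samples. Deviations from the group means correlated with a median r of 0.174 (0.0277 to 0.343, 12 pairs, 8 of them above 0.1) within rats, against -0.1 between rats of a time point. The value between rats follows largely from centring each group of 3 on its own mean, so it is no separate comparison. The alternatives were the animal as a block, time-matched controls, no rescaling, a pseudocount of 0.1, no filter, a mean of at least 5, the highest transcript per gene, an intensity trend, and leaving out each library. 0 of 276 library pairs were identical. Promoters came from RefSeq (GRCr8), and motifs were searched as exact letters on both strands, none of them contained in another. Python 3.11.15, numpy 2.4.6, pandas 2.3.3 and matplotlib 3.10.9 prepared tables and plots.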

Additional observations from a re-analysis of the deposited data

Results flagged for a closer look

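The level of 10 genes in trained muscle differed between 30 and 2 days of training by the limma contrast of the trained muscles. That contrast holds no contralateral muscle and compares different rats. Lower at 30 days were Dkc1 (-0.99), Rrp12 (-0.85), Rrp9 (-0.80), Nop16 (-0.70), Polr1d (-0.62), Tsr1 (-0.49), Rrp1 (-0.47), Ncl (-0.35), Gnl2 (-0.33) and Utp20 (-0.30), all on the log2(value + 1) scale, with adjusted p between 9.24e-05 and 0.048. When the difference between the 2 legs of each rat was compared instead, Rrp12 passed (-0.81, adjusted p = 0.0294), and the adjusted p of the other 9 lay between 0.0991 (Ncl) and 0.507 (Polr1d).

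Between 10 and 2 days Rrp9 (-0.68), Nop16 (-0.67) and Gnl2 (-0.41) were lower, and with the animal as a block their adjusted p was 0.649, 0.318 and 0.468. Dixon's test for a single outlying sample was not run.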

How the results depend on the processing

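The counts of members past the threshold were 11, 7, 4 and 5 at the 4 time points in order, then 10 for 30 against 2 days and 3 for 10 against 2 days. With the animal as a replicate block they were, in that order, 2, 3, 0, 1, 1 and 0, and where limma gave 0 an unadjusted p under 0.05 was reached by 1 higher and 3 lower members at 20 days and by 0 and 8 for 10 against 2 days. With time-matched controls in place of the 12 pooled ones they were 3, 3, 0 and 0 against contralateral muscle, which uses 3 controls instead of 12, and 1 higher and 4 lower members reached an unadjusted p under 0.05 in limma at 20 days, and again 1 and 4 at 30 days. Without rescaling the counts were 3 at 10 days, 1 at 20 days, 16 at 30 days and 29 for 30 against 2 days. The highest transcript per gene gave 3 at 30 days. The other counts, under these and under the pseudocount, filter and trend alternatives, stayed within 1.5 times. The cause of the differences between fits was not tested.

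Leaving out 1 library gave 1 to 19 members at 2 days, 3 to 8 at 10 days, 1 to 5 at 20 days, 2 to 6 at 30 days, 4 to 15 for 30 against 2 days and 0 to 6 for 10 against 2 days, and where 1 sample was left out of a trained group the other 2 carried it. Of the 27 calls of named members, 6 were kept and 21 lost with the animal as a block, 12 and 15 with time-matched controls, 20 and 7 on the deposited values, and 21 and 6 with the highest transcript. Among these 27 calls no value changed sign under any alternative run.

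The number of muscles per trained group, 3, and the reads per gene, 27 to 1091 for the 29 genes where they could be recovered, limit the precision. The p-values set each difference against the spread between these muscles, and the main fit treats muscles of the same rat as independent.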

Other observations

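Transcript models of a gene did not always follow the summed value. These were chosen after their values were seen and were not tested. The minor nucleophosmin model Npm1-202 was 1.70 ± 0.84 (SD, n = 12) in contralateral muscle and 4.24 ± 0.98, 2.97 ± 0.88, 3.00 ± 0.97 and 2.74 ± 1.57 (SD, n = 3) at 2, 10, 20 and 30 days of training, while the main model Npm1-201 was 49.9 ± 7.01 in contralateral muscle and 48.2 ± 3.87 at 2 days. The coding model of the small-subunit GTPase-like factor Tsr1, Tsr1-201, was 9.62 ± 1.03 in contralateral muscle, 13.7 ± 2.92 at 2 days and 7.71 ± 0.35 at 30 days. Its retained-intron models were lower in value and differed from each other: in the same 3 groups Tsr1-204 was 1.77 ± 0.54, 1.21 ± 0.40 and 1.00 ± 0.26, and Tsr1-205 was 2.62 ± 0.96, 2.21 ± 1.68 and 2.95 ± 0.09.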
